A study of Mus musculus with 15 samples.

Results

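Chaperones are the proteins that keep other proteins folded, and the values below describe the expression of their genes in the mouse trigeminal ganglion (TG), the sensory ganglion whose neurons supply the cornea. The set was chosen by name: protein-coding genes whose symbols begin with Hspa, Hspb, Hspd, Hspe, Hsph, Hsp90 or Dnaj, or with Cct and a digit, together with Tcp1. Of the 55573 genes in the count table, 83 met this rule, and the 72 with a mean of at least 10 counts over the 15 samples are described here. Right TG were taken from 10-week-old male CD1 mice after 12 days of topical treatment, given 3 times a day, of a right cornea from which the central epithelium and anterior stroma had been scraped away. Injury was thus common to all 3 groups, and 5 samples each came from mice given vehicle (replicates 1 to 5), RvD6 (labelled RvD6-standard, replicates 6 to 10) or RvD6si (labelled RvD6-isomer, replicates 11 to 15). RvD6 is a dihydroxylated lipid mediator made from docosahexaenoic acid, and RvD6si is a stereoisomer of it that the study purified from tears and corneal culture medium. The question was whether a lipid applied to the cornea is answered by gene expression in the ganglion. The concentrations applied before the ganglia were taken are not given in the sources used here, no uninjured ganglion is part of the comparison, and the labels do not state that each sample came from a separate mouse, so p-values measure the spread between these samples.

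HSP70 proteins bind unfolded stretches of other proteins and release them in a cycle driven by ATP. J-domain proteins (the DNAJA, DNAJB and DNAJC classes) bring clients to HSP70 and start ATP hydrolysis, HSP110 proteins and other exchange factors reset the cycle, and HSP90 finishes the folding of kinases and receptors. Small heat shock proteins hold unfolding clients in a soluble state, the CCT complex (TRiC) folds actin and tubulin, and HSP60 with HSP10 does similar work in mitochondria. In sensory neurons, whose long axons depend on transport and on tubulin, Hspb1 is among the best known of these genes for its part in survival and regrowth after nerve injury.

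Library totals ran from 4125962 to 9903396 counts with a median of 7756538. The chi-square per degree of freedom between libraries of a group was 11.3 to 49.2, where counting noise alone gives about 1. Over all genes pooled, the spread between samples thus exceeded counting noise. This value does not separate the sources of spread for single genes. Sensory neuron markers were all detected, with 14 of 14 listed genes passing the expression filter. Several libraries carried transcripts of other tissues. Summed skeletal muscle markers reached 2321 and 3308 on the TPM scale, which corrects counts for gene length and library size, in RvD6 replicates 8 and 9, ran from 126 to 488 in the other RvD6 libraries, and stayed between 27.0 and 221 in vehicle and between 29.0 and 63.4 in RvD6si. Red blood cell markers summed to 6793 to 15282 TPM in vehicle, 17539.7 to 32233 TPM in RvD6 and 3487 to 9081 TPM in RvD6si, apart from 41025 TPM in RvD6si replicate 15. These values are set beside the results that they accompany.

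Heat shock factors switch on stress-inducible chaperones through heat shock elements, inverted repeats of the unit GAA. RefSeq promoters on GRCm38.p6 were found for 58 of the 72 genes, and the 250 bases before each listed start were searched on both strands for GAANNTTC or TTCNNGAA, each of which reads the same on either strand. At least 1 match was present for 15 of the 58 (25.9%), against 3932 of 27025 genes in the promoter table (14.5%). A gene counted if any of its listed starts had a match, and some of the 58 have several starts. Over single promoters of all genes the share was 12.8% (4218 of 32851). The longer form with 3 units, GAANNTTCNNGAA or TTCNNGAANNTTC, which always contains the shorter form, was present for 3 (5.17%), namely Hspd1, Hspe1 and Dnajb6, against 139 of all genes (0.514%). Shown first are the bases around the longest run, a 30-base stretch at chr1:55088053-55088082 on the plus strand that lies between the starts of Hspe1 and Hspd1, the HSP10 and HSP60 genes. The same run was found from both sides, 89 bases before the start of Hspe1 and 144 bases before that of Hspd1. Then follow the upstream windows of 3 genes to which the comparisons return, Hspb1 at chr5:135887669-135887918 (plus strand), Dnajb4 at chr3:152193846-152194095 (minus strand, the listed start within the gene) and Dnajc27 at chr12:4082324-4082573 (plus strand). All are written 5′ to 3′ in the direction of transcription, and capitals mark the matches.
Hspe1: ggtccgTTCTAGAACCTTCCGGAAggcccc
Hspb1: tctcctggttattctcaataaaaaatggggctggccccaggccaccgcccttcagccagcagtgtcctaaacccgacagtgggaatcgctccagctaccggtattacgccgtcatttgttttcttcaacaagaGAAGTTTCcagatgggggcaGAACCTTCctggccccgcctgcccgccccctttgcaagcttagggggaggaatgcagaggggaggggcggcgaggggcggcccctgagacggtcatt
Dnajb4: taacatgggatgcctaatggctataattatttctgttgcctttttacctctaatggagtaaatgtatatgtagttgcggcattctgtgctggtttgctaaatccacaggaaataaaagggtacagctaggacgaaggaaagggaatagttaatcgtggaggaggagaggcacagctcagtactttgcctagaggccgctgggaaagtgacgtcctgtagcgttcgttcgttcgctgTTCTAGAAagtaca
Dnajc27: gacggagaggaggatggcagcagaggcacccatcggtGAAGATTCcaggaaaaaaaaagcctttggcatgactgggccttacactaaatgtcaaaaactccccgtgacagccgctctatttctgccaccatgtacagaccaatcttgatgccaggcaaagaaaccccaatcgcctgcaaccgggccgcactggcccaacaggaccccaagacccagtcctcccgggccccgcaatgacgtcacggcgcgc
Hspb1 had 2 matches, GAAGTTTC and GAACCTTC, which began 117 and 97 bases before the start. In Dnajb4 the match TTCTAGAA began 14 bases before the start, and in Dnajc27 the match GAAGATTC began 213 bases before it. The other listed Dnajb4 window, at the 5′ end of the gene (chr3:152210084-152210333), had 0 matches. The stress-inducible pair Hspa1a and Hspa1b each had the match GAAGATTC at 104 bases. A match describes the letters in these windows only, and no binding was measured.

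The chaperone level of the ganglion was unevenly shared among the classes. Of the summed TPM level, the 3 HSP90 genes held 37.1% over the 72 genes, the 7 CCT genes 16.9%, the 13 HSP70 and HSP110 genes 16.1% and the 5 small heat shock protein genes 12.9%. Classes follow gene symbols alone, not known function, so the small heat shock protein class also takes in Hspb11. J-domain proteins were the most numerous, with 4 DNAJA, 10 DNAJB and 26 DNAJC genes, yet these classes held 3.92%, 2.51% and 6.97%. The mitochondrial pair Hspd1 and Hspe1 held 1.95%, and the 2 remaining genes, Hspbp1 and Hspbap1, held 1.73%. Mean levels over the 15 samples spanned from 0.689 TPM for Dnajb5 to 2496 TPM for Hsp90ab1, with a median of 33.6 TPM.

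**Figure D1:**
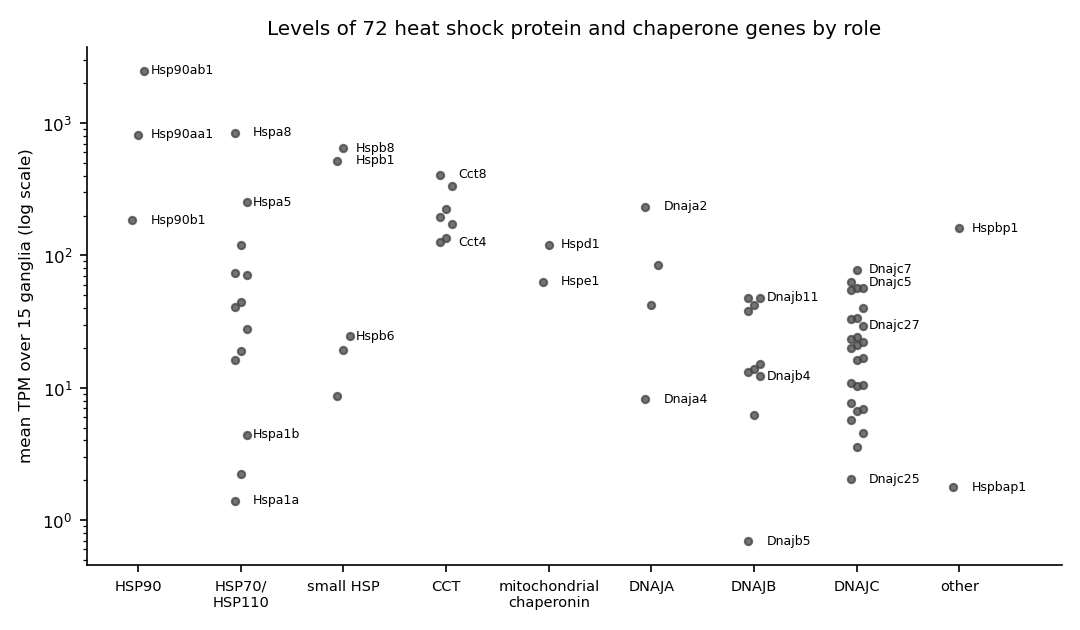
Mean level of each of the 72 genes over 15 ganglia in TPM (log scale), with 1 point a gene, grouped by role on the horizontal axis. Hsp90ab1 stood highest at 2496 TPM, and the inducible pair Hspa1a and Hspa1b lay near the bottom at 1.39 and 4.42 TPM. The levels of this pair are uncertain, because reads that fit both genes were not counted.

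Within each class a small number of genes carried the level. Hsp90ab1, the constitutive cytosolic HSP90, was followed by the stress-responsive cytosolic Hsp90aa1 at 815 TPM and by Hsp90b1 (GRP94), the form of the endoplasmic reticulum (ER), at 184 TPM. Hspa8, the constitutive HSC70, stood at 842 TPM, above Hspa5 (BiP), the HSP70 of the ER, at 253 TPM. Hspb8, a small heat shock protein that works with Bag3 in removing misfolded proteins, and Hspb1 stood at 644 and 519 TPM, whereas Hspb6, known from muscle, stood at 24.5 TPM. The highest of the CCT subunits was Cct8 at 407 TPM. Leading the J-domain classes were Dnaja2 at 234 TPM, Dnajb11 (ERdj3), a partner of BiP, at 48.1 TPM, and Dnajc7, which binds both HSP70 and HSP90, at 78.1 TPM.

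The share of all counts that fell on the 72 genes was 1.50% ± 0.0542 (SD, n = 5) in vehicle, 1.22% ± 0.143 in RvD6 and 1.41% ± 0.122 in RvD6si. Vehicle samples lay between 1.45% and 1.59%, RvD6 samples between 1.00% and 1.36%, and RvD6si samples between 1.27% and 1.60%. All RvD6 samples were below all vehicle samples, and the lowest was replicate 9. RvD6si samples overlapped with both groups. In RvD6 replicate 9, 15 of the 72 genes (20.8%) had their lowest value of the 15 libraries, compared with 8.25% of all tested genes with counts in every sample. The sets differ slightly, since the 72 include Dnajb3 and Dnajc22, which had 0 counts in some libraries.

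To ask whether RvD6si was accompanied by other chaperone levels than vehicle, 16567 genes were fitted with edgeR's quasi-likelihood test and adjusted by the Benjamini-Hochberg method, and the same fit serves every comparison below. All 72 genes were tested. Fold changes are on the log2 scale, and single values are counts normalized with DESeq2 size factors. Of the 72, 2 J-domain genes rose, Dnajc5 and Dnajc27, and 0 fell, whereas 0.670% of all tested genes passed, 0.525% higher and 0.145% lower. At an unadjusted p under 0.05, 5 were higher (Dnajb4, Dnajb9, Dnajc27, Dnajc5 and Hspa14), where 8.69% of all genes were higher. At the same threshold 10 were lower (Cct5, Cct7, Dnajb11, Dnajb12, Dnajc15, Dnajc21, Hsp90aa1, Hspb1, Hspb8 and Hspbp1), where 7.30% of all genes were lower. DESeq2 called 6 of the 62 members to which it gave an adjusted p, against 8.13% of genes. They were 3 higher genes (Dnajb4, Dnajc27 and Dnajc5, against 4.82% of genes) and 3 lower ones (Dnajb12, Dnajc21 and Hspb1, against 3.30%). The median change of the 72 was -0.12 beside 0.02 for all genes tested, and 43 of 72 lay below 0, where 48.8% of all genes did. All genes tested include many with low counts. For the 9033 with a mean count of at least 100, apart from the very highest, the median was 0.01.

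**Figure D2:**
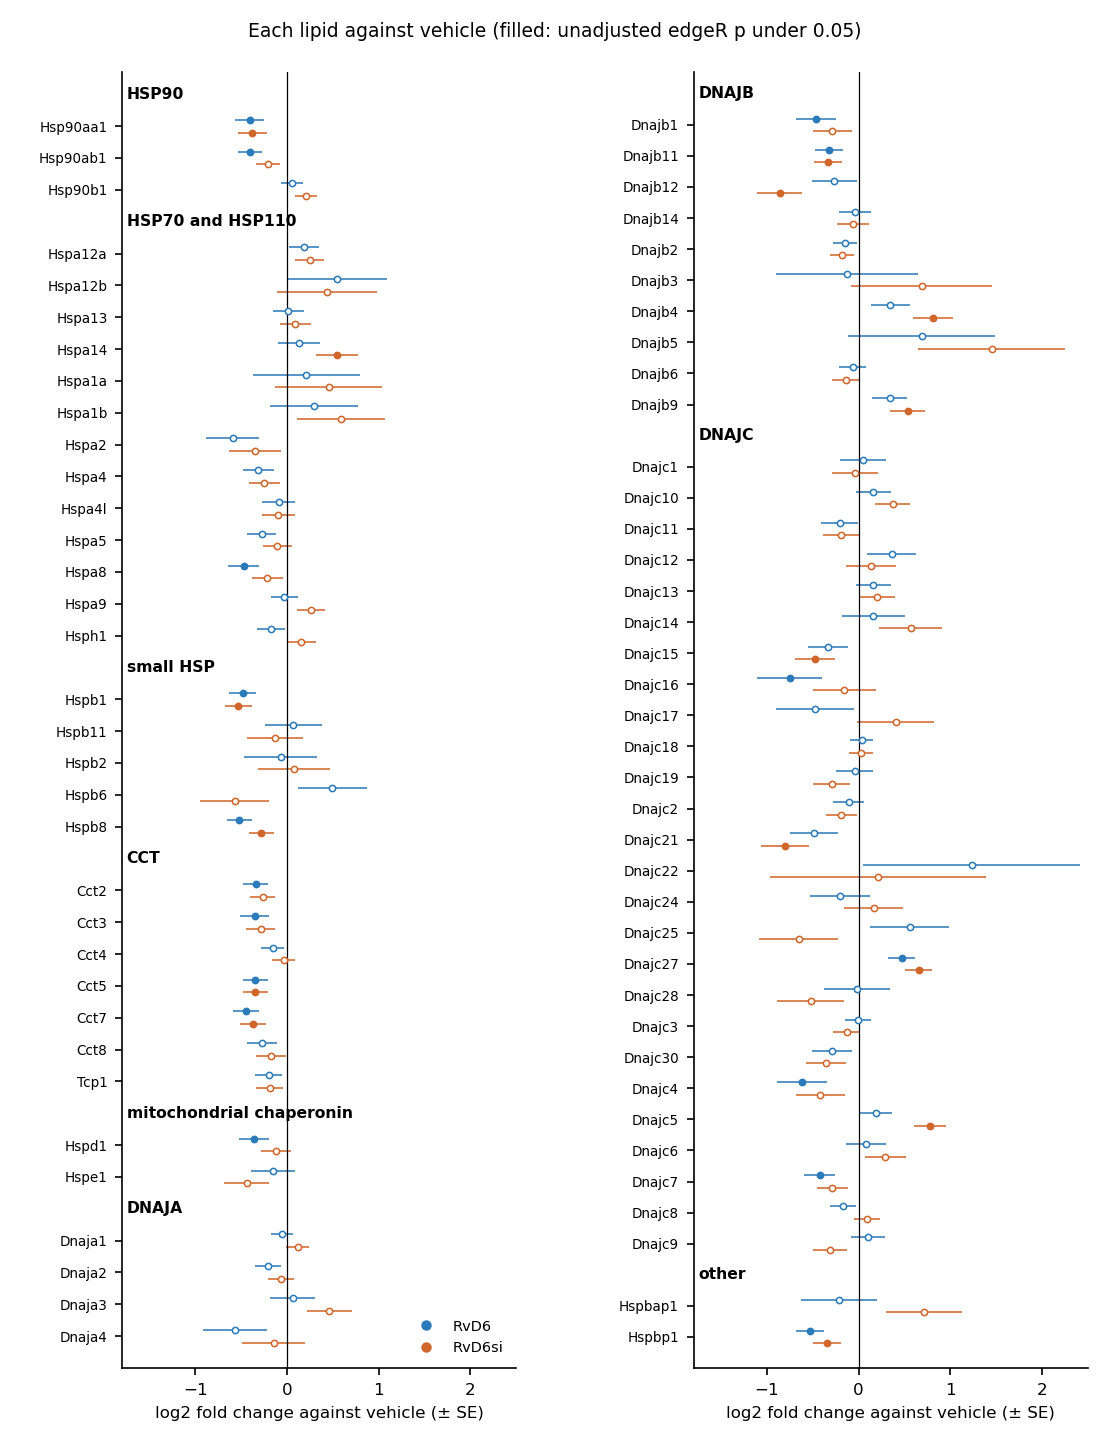
Log2 fold change against vehicle with its standard error for the 72 genes, grouped by role, for RvD6 (blue) and RvD6si (orange); filled points have an unadjusted edgeR p under 0.05. Both colours are set against the same 5 vehicle samples, Dnajc5 and Dnajc27 stand to the right for RvD6si, and the 7 CCT genes stand to the left of 0.

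Dnajc5 encodes cysteine string protein, which sits on synaptic vesicles and with HSC70 keeps the release machinery folded. Its normalized counts were 1279, 1166, 853, 904 and 704 in the vehicle samples, 1101, 1126, 1013, 1327 and 1089 in the RvD6 samples, and 2279, 1969.7, 1344, 1411 and 1474 in the RvD6si samples. Every RvD6si sample was above every sample of the other groups, with replicates 11 and 12 highest, while vehicle and RvD6 overlapped. The increase over vehicle was 0.78 ± 0.18 (SE; adjusted p = 0.0473 with edgeR and 0.00177 with DESeq2). Against RvD6 the same gene was 0.59 higher (unadjusted p = 0.00346, adjusted p = 0.260 with edgeR).

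Dnajc27 encodes a small GTPase that carries a J domain. It was measured at 404, 288, 369, 300.1 and 301 normalized counts in vehicle, at 493, 433, 430.1, 444 and 523 in RvD6, and at 604, 557, 544, 419 and 502 in RvD6si. All samples of either lipid were above all vehicle samples, and the lipids overlapped with each other. The increase with RvD6si was 0.65 ± 0.15 (SE; adjusted p = 0.0455 with edgeR and 0.000608 with DESeq2). With RvD6 the difference was 0.47 (adjusted p = 0.191 with edgeR and 0.0455 with DESeq2).

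**Figure D3:**
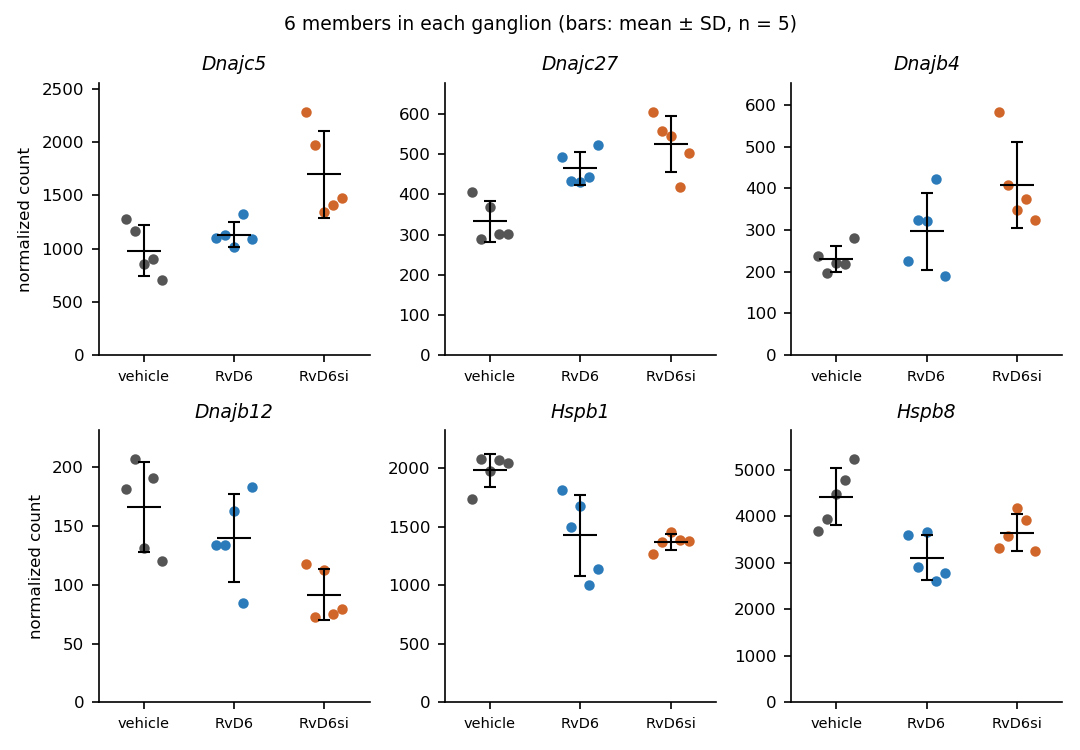
Normalized counts of 6 genes in each ganglion, with 1 point a sample and bars for the mean ± SD of 5 samples a group. The RvD6si points of Dnajc5, Dnajc27 and Dnajb4 lie above all vehicle points, and those of Dnajb12 and Hspb1 lie below them.

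Both edgeR calls were close to the threshold. Leaving out RvD6 replicate 9, which enters only through the shared estimate of the spread, kept both and added Hspb1 (adjusted p = 0.0458), and leaving out any other of the 14 libraries ended both. Across these 15 fits the change of Dnajc5 ran from 0.66 to 0.89 (adjusted p from 0.0372 to 0.152) and that of Dnajc27 from 0.60 to 0.73 (adjusted p from 0.0412 to 0.142). At an unadjusted p under 0.05, the 10 lower genes became 4 without vehicle replicate 5 (5.66% of all genes), 6 without vehicle replicate 3 (5.35%) and 5 without RvD6si replicate 11 (5.37%), and the 5 higher genes became 8 without RvD6si replicate 12 (8.70%) or replicate 15 (8.43%).

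Other J-domain genes were higher with RvD6si without passing in edgeR. Dnajb4 (HLJ1), a heat-inducible cytosolic J protein, stood at 239, 197, 221, 218 and 280.5 normalized counts in vehicle, 226, 324, 321, 423 and 190.3 in RvD6, and 583, 407, 348, 375 and 323 in RvD6si. No RvD6si value reached down into the vehicle range, whereas RvD6 overlapped with both. The difference from vehicle was 0.81 ± 0.21 (SE; adjusted p = 0.0771 with edgeR and 0.00867 with DESeq2). Dnajb9 (ERdj4), a J protein of the ER, differed by 0.53 (adjusted p = 0.172, edgeR). Hspa14, an HSP70 relative that works at the ribosome, differed by 0.54 (adjusted p = 0.249, edgeR). Dnajb4, Dnajc27 and Dnajc5 were the 3 genes with all RvD6si samples above all vehicle samples (4.17% of 72), compared with 2.48% of all tested genes.

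Among the lower genes, Hspb1 had the smallest adjusted p in edgeR. It held 1742, 2078, 1978, 2071 and 2047 normalized counts in vehicle, 1817, 1501, 1679.8, 1004 and 1143 in RvD6, and 1272, 1367, 1459.5, 1386 and 1380.0 in RvD6si. The RvD6si samples were tightly grouped and all lay below vehicle, while RvD6 spread more widely and reached into the vehicle range. The difference with RvD6si was -0.53 ± 0.15 (SE; adjusted p = 0.0858 with edgeR and 0.0115 with DESeq2), and once each sample's trend on gene length was removed it was -0.32 (adjusted p = 0.281). With RvD6 it was -0.49 (adjusted p = 0.180 with edgeR and 0.0657 with DESeq2).

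Dnajb12, an ER membrane protein that calls HSC70 to misfolded membrane proteins, was the other gene with all RvD6si samples below all vehicle samples, so 2 of 72 did so (2.78%) beside 2.40% of tested genes. Its values were 181, 206, 131, 191 and 120.1 in vehicle, 134, 133, 163, 84.3 and 183 in RvD6, and 117, 72.7, 112, 75.5 and 79.6 in RvD6si. The difference was -0.86 ± 0.25 (SE; adjusted p = 0.0979 with edgeR and 0.0166 with DESeq2). The highest RvD6si sample lay just under the lowest vehicle sample. Dnajc21, which acts in ribosome assembly, differed by -0.80 (adjusted p = 0.138 with edgeR and 0.0415 with DESeq2). Dnajc15, a mitochondrial inner membrane protein, differed by -0.48 (adjusted p = 0.295, edgeR).

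For RvD6 against vehicle, edgeR called 0 of the 72 genes, as it did 0% of all genes tested. Before adjustment 1 gene was higher (Dnajc27, 1.39% of the 72), where 7.63% of all genes were higher. In the other direction 16 were lower (22.2% of the 72), where 5.99% of all genes were lower. They were Cct2, Cct3, Cct5, Cct7, Dnajb1, Dnajb11, Dnajc4, Dnajc7, Dnajc16, Hsp90aa1, Hsp90ab1, Hspa8, Hspb1, Hspb8, Hspbp1 and Hspd1. They include Hsp90ab1, Hspa8, Hsp90aa1, Hspb8 and Hspb1, the 5 highest of the 72 genes by TPM. All genes tested include many with low counts, for which a small p is harder to reach, and no share was matched to the counts of the 72. With only genes of 10 counts or more in every library kept, 10 of the chaperone genes were lower, where 5.98% of genes were. DESeq2 called 3 of the 72, compared with 1.92% of genes: Dnajc27 was higher (1.44% of genes), and Hspb8 and Hspbp1 were lower (0.479%). The median change was -0.14 beside 0.02 for all genes, and 47 of 72 lay below 0, where 47.8% of all genes did. For the 9033 better counted genes described above the median was -0.04, so the gap to these was smaller than the gap to all genes.

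The count of lower genes moved with single libraries. It was 7 of 72 without vehicle replicate 5 (4.17% of all genes), 9 without RvD6 replicate 7 (4.59%), 10 without RvD6 replicate 9 (4.15%) and 10 without RvD6 replicate 10 (4.33%), and from 13 to 18 without any other library. A skeletal muscle score added as a covariate left 3 (2.72% of all genes) with 0 higher. The markers behind this score were themselves higher with RvD6 (median 3.86). Score and group can thus be told apart only in part, here and wherever RvD6 is compared with this covariate. In that fit 51 of the 72 lay below 0, compared with 47 without the covariate, and Hspa8 differed by -0.54, Hspb8 by -0.56 and Hspb1 by -0.39.

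Hspb8 had the smallest adjusted p of the 72 in this comparison. Its normalized counts were 3689, 3943, 4485, 4785 and 5223 in vehicle, 3596, 2912, 3662, 2604 and 2785 in RvD6, and 3326, 3586, 4173, 3917 and 3248 in RvD6si. All RvD6 samples were below all vehicle samples, although RvD6 replicate 8 and vehicle replicate 1 were almost level. The difference with RvD6 was -0.52 ± 0.13 (SE; adjusted p = 0.137 with edgeR and 0.0208 with DESeq2). With RvD6si it was -0.28 (adjusted p = 0.311, edgeR), and -0.13 with the length trend removed.

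Hspbp1 encodes an exchange factor that releases nucleotide from HSP70. It held 973, 1085, 1102, 1039 and 1254 normalized counts in vehicle, 979, 721, 898, 565 and 649 in RvD6, and 807, 851, 988, 916 and 753 in RvD6si. RvD6 replicate 6 was level with the lowest vehicle sample, so the groups touched. The difference with RvD6 was -0.53 ± 0.15 (SE; adjusted p = 0.174 with edgeR and 0.0437 with DESeq2), and with RvD6si it was -0.34 (adjusted p = 0.273, edgeR), or -0.19 with the length trend removed.

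Hsp90ab1 was counted at 25782, 25699, 24577, 24294 and 25911 in vehicle, 21492, 21137, 22566, 13205 and 18054 in RvD6, and 21016, 24202, 25011, 21571 and 17896 in RvD6si. Vehicle samples were almost level, and every RvD6 sample was below them, with replicates 9 and 10 lowest. The difference was -0.40 ± 0.13 with RvD6 (SE; adjusted p = 0.197, edgeR) and -0.21 with RvD6si (adjusted p = 0.456). Hsp90aa1 differed by -0.41 with RvD6 (adjusted p = 0.279) and by -0.38 with RvD6si (adjusted p = 0.247). For RvD6 its value was -0.27 without RvD6 replicate 9 and -0.18 with the muscle covariate. Hsp90b1, the ER form, differed by 0.05 and 0.20 (adjusted p = 0.890 and 0.422); the first of these was below 0 once each sample's trend on GC content was removed.

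**Figure D4:**
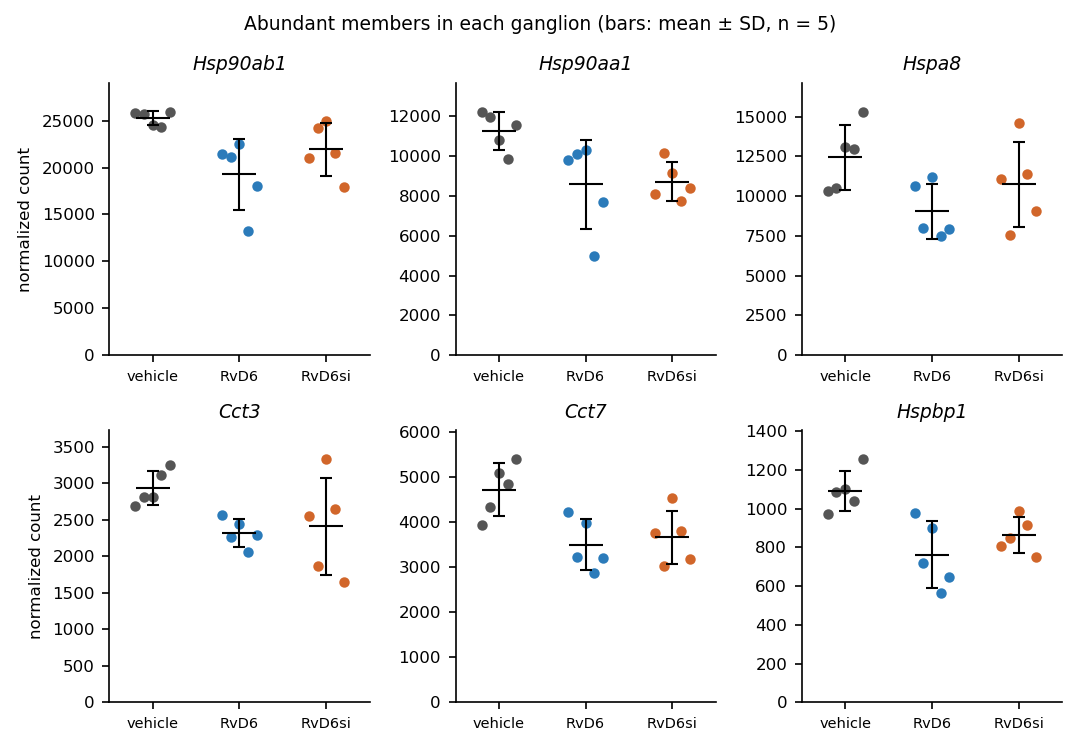
Normalized counts of 6 highly expressed genes in each ganglion, with 1 point a sample and bars for the mean ± SD of 5 samples a group. All RvD6 points of Hsp90ab1 and Cct3 lie below the vehicle points, whereas the RvD6si points overlap with vehicle.

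Hspa8 spread widely in every group. Its counts were 10319, 10545, 13109, 12990.1 and 15284 in vehicle, 10611, 8002, 11216, 7465 and 7920.4 in RvD6, and 11112, 7566, 14621, 11377 and 9051 in RvD6si. The groups overlapped, and the differences were -0.47 ± 0.17 with RvD6 (SE; adjusted p = 0.251, edgeR) and -0.22 with RvD6si (adjusted p = 0.581).

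The CCT subunits assemble into the stacked rings of 1 chaperonin, and their genes lay on the same side of 0 against vehicle. Against vehicle, all 7 were lower with RvD6, from -0.44 for Cct7 to -0.16 for Cct4, with a median of -0.34. The same 7 ran from -0.37 for Cct7 to -0.04 for Cct4 with RvD6si, with a median of -0.27. The RvD6 median was -0.16 with the muscle covariate, and the RvD6si median was -0.16 without vehicle replicate 5. Of all genes tested, 47.8% lay below 0 with RvD6 and 48.8% with RvD6si. The 7 genes were measured in the same libraries and are not independent observations. The comparisons share their vehicle samples, and 0 of the 7 passed edgeR's adjusted threshold in either. At an unadjusted p under 0.05, 4 were lower with RvD6 and 2 with RvD6si, where 5.99% and 7.30% of all genes were lower. Cct4 turned above 0 for RvD6si when vehicle replicate 3 or vehicle replicate 5 was left out. Tcp1, the alpha subunit, differed by -0.20 and -0.19 (adjusted p = 0.574 and 0.560).

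Cct3 shows how the spread of the groups differed. Vehicle samples held 2693, 2816, 2812, 3119 and 3246 normalized counts, RvD6 samples 2567, 2259, 2439, 2056 and 2293, and RvD6si samples 2557, 1866, 3326, 2641 and 1651. RvD6 lay wholly below vehicle, whereas RvD6si covered the ranges of both. The differences were -0.35 ± 0.16 with RvD6 (SE; adjusted p = 0.340, edgeR) and -0.29 ± 0.16 with RvD6si (adjusted p = 0.387). Cct3, Hsp90ab1 and Hspb8 were the 3 genes with all RvD6 samples below all vehicle samples (4.17% of 72), beside 1.47% of all genes tested, and Dnajc27 was the 1 gene with all above, beside 2.25%. Cct6a, a subunit of the same complex that the annotation used here types as a processed transcript and that is therefore outside the set, differed by -0.33 with RvD6 (adjusted p = 0.347) and by -0.00 with RvD6si (adjusted p = 0.997).

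Hspa1a and Hspa1b, the inducible HSP70 pair, were low in all groups. Hspa1a stood between 3.21 and 16.7 normalized counts in vehicle, between 3.91 and 16.8 in RvD6, and between 6.39 and 19.2 in RvD6si. Hspa1b stood between 10.4 and 61.7, between 25.0 and 51.4, and between 24.8 and 68.9. The ranges overlapped for both, and the differences with RvD6si were 0.45 ± 0.58 and 0.59 ± 0.48 (SE; adjusted p = 0.757 and 0.591, edgeR), and the groups were too widely spread to tell such differences from 0. The 2 genes are near-identical copies, and reads that fit both were not counted, so their levels are uncertain. Other inducible genes were higher: Hsph1 had a mean of 73.4 TPM and Dnajb1 37.8 TPM. Dnajb1, the main inducible partner of HSP70, differed by -0.46 with RvD6 and -0.29 with RvD6si (adjusted p = 0.364 and 0.555). Hsph1, an inducible HSP110, differed by -0.17 and 0.16 (adjusted p = 0.661 and 0.677). Early response genes, which handling of tissue can raise, were measured beside them. Of 10 listed, 8 were tested and 0 passed in edgeR. DESeq2 called Junb higher with RvD6si than with vehicle (1.27 on the edgeR log2 scale, DESeq2 adjusted p = 0.00487). It also called Egr1 higher (1.22, DESeq2 adjusted p = 0.0146). Neither the source of these differences nor the part of early response genes in the chaperone values was tested.

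The HSP70 forms of the organelles did not pass the test against vehicle. Hspa5 differed by -0.28 with RvD6 and -0.11 with RvD6si (adjusted p = 0.463 and 0.789, edgeR), and Hspa9 (mortalin), the mitochondrial HSP70, by -0.03 and 0.26 (adjusted p = 0.952 and 0.409). In mitochondria, Hspd1 differed by -0.36 and -0.12 (adjusted p = 0.346 and 0.775), and Hspe1 by -0.16 and -0.44 (adjusted p = 0.821 and 0.384). The stretch printed above lies before both of these genes. Auxilin (Dnajc6), which uncoats clathrin vesicles in neurons, differed by 0.08 and 0.29 (adjusted p = 0.918 and 0.556). By class, the median change with RvD6si was 0.16 for HSP70 and HSP110, 0.03 for DNAJA, -0.10 for DNAJB and -0.09 for DNAJC, and with RvD6 it was -0.03, -0.13, -0.10 and -0.01. Of the remaining genes with an unadjusted p under 0.05 for RvD6, Dnajc16 and Dnajc4 had the largest differences, -0.75 and -0.62 (adjusted p = 0.360 and 0.328).

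RvD6si and RvD6, which differ as stereoisomers, were compared over the 72 genes with p-values adjusted over all 16567 genes. The concentrations of both are not given in the sources used here. EdgeR called 0 of the 72 where 0.235% of all genes passed, and DESeq2 also called 0, where 0.936% passed. At an unadjusted p under 0.05, 4 genes were higher with RvD6si (Dnajb4, Dnajc5, Hspbap1 and Hsph1), where 4.18% of all genes were. The 4 lower ones were Dnajb12, Dnajc25, Dnajc9 and Hspb6, where 4.64% of all genes were lower. Dnajc5 was the only gene of the 72 with all RvD6si samples above all RvD6 samples (0.652% of tested genes), and 0 genes had all below (1.09%). The median difference was 0.11, beside -0.00 for all genes tested, and 25 of 72 lay below 0, where 50.5% of all genes did. For the same 9033 better counted genes the median was 0.04, so here too the gap to these was the smaller.

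For most of these genes the data placed the difference between the isomers within 1 log2 unit. That bound is wider than the changes of Dnajc5 and Dnajc27 called against vehicle (0.78 and 0.65). The intervals are for single genes and are not adjusted for their number. The 95% interval of RvD6si minus RvD6 covered 0 for 64 of the 72 genes, and it lay within 1 log2 unit on either side for 56. Among the 32 genes with a mean of at least 500 counts, 30 intervals covered 0, all 32 lay within 1 unit, and the median width was 0.646. For Dnajc5 the interval was 0.22 to 0.96 around 0.59. For Dnajc27 it was -0.12 to 0.49 around 0.18, for Hspb1 -0.36 to 0.26 around -0.05, and for Hsp90ab1 -0.08 to 0.47 around 0.19. Intervals that cover 0 do not show that the isomers act alike. Dnajb4 and Dnajb12, whose RvD6 samples lay between or across the other groups, had intervals of 0.02 to 0.92 around 0.47 and of -1.12 to -0.08 around -0.60 (adjusted p = 0.534 and 0.481, edgeR). Hsph1 was 0.33 higher (interval 0.00 to 0.66, adjusted p = 0.560). Hspbap1, whose product binds the Hspb1 protein, was 0.93 higher at low counts (interval 0.05 to 1.81, adjusted p = 0.530). Dnajc9, a cochaperone of histones, was lower by an estimate of -0.42 (interval -0.81 to -0.02, adjusted p = 0.530). Dnajc25 had the largest estimate, -1.21 (interval -2.12 to -0.29, adjusted p = 0.383), from 11.3 to 28.3 normalized counts with RvD6si and 23.4 to 64.4 with RvD6.

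Hspb6, a small heat shock protein abundant in muscle, was highest in 2 libraries of the RvD6 group. It stood at 146, 162, 125, 168 and 223 normalized counts in vehicle, 142, 141, 373, 385 and 134 in RvD6, and 111, 58.3, 158, 175 and 50.4 in RvD6si. RvD6 replicates 8 and 9 held more than any other library, and they were also the libraries with 2321 and 3308 TPM of muscle markers. The difference between the isomers was -1.07 ± 0.38 (SE; interval -1.87 to -0.27, adjusted p = 0.378, edgeR), and with a muscle score as covariate it was 0.27 (adjusted p = 0.990), with the sign turned.

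**Figure D5:**
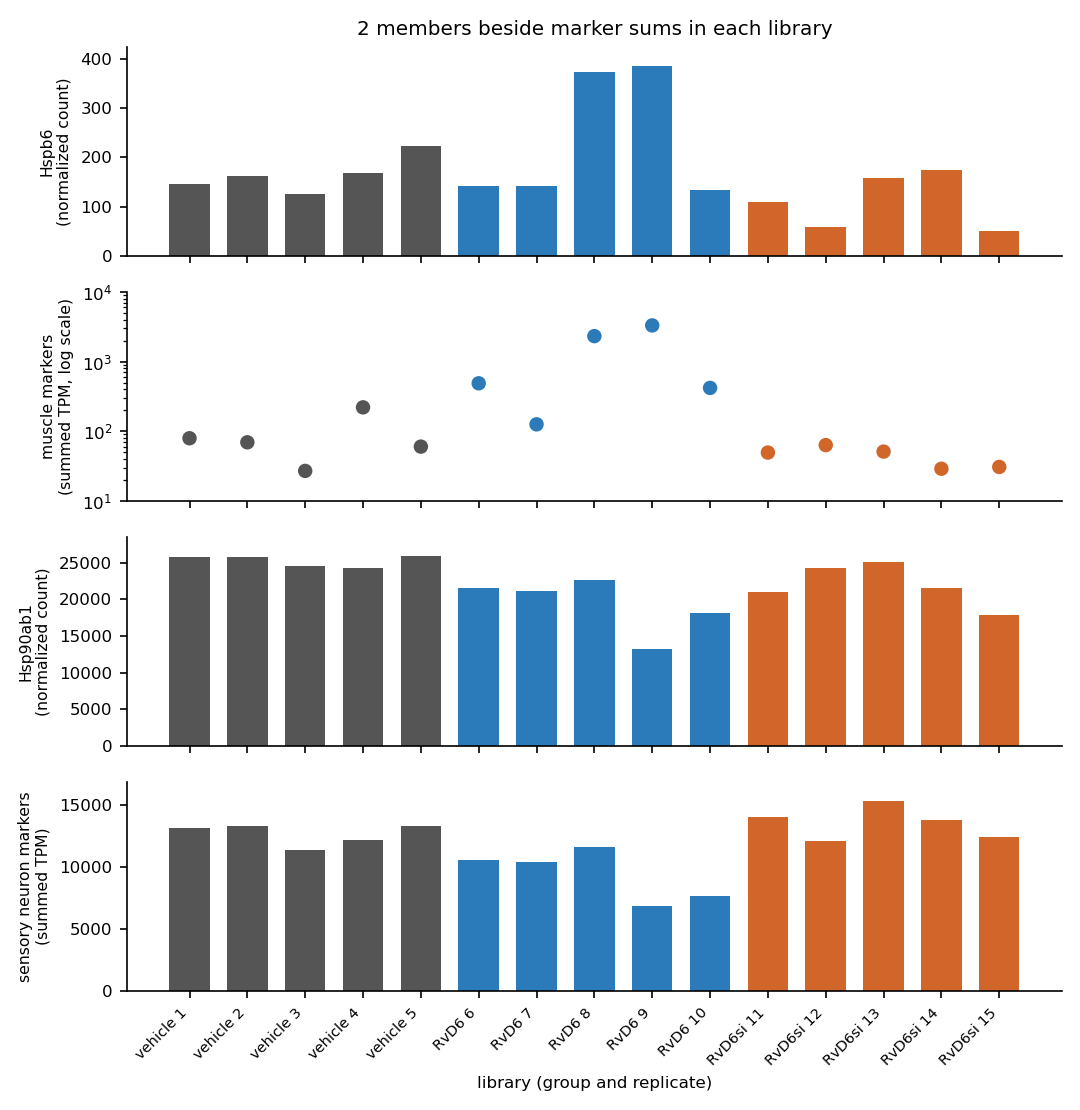
From top to bottom, normalized counts of Hspb6, summed TPM of skeletal muscle markers (log scale), normalized counts of Hsp90ab1 and summed TPM of sensory neuron markers in each of the 15 libraries, coloured by group. RvD6 replicates 8 and 9 stand highest for Hspb6 and for muscle markers, and RvD6 replicates 9 and 10 stand lowest for sensory neuron markers.

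Marker lists of the cells in the ganglion were read in the same fit. With RvD6, 14 of 14 tested muscle markers (16 listed) were higher than vehicle at an unadjusted p under 0.05 (median 3.86; 0 with edgeR's adjustment, 13 with DESeq2's), and 10 were lower with RvD6si than with RvD6 after edgeR's adjustment. Of 7 red blood cell markers 7 were higher with RvD6 before adjustment (median 1.54), and of 10 granulocyte markers 10 were (median 2.66), with 1 each called by DESeq2. Granulocyte markers summed to 306 to 1433 TPM in vehicle, 1813 to 6222 in RvD6 and 147 to 346 in RvD6si, apart from 5969 in RvD6si replicate 15. Of 9 macrophage markers 3 were higher before adjustment and of 7 endothelial markers 2 were higher and 1 lower. Of all genes tested, 7.63% were higher and 5.99% lower with RvD6 before adjustment, and DESeq2 called 1.44% of genes higher. The summed muscle level was above 0 in every library, and Myh7 and Tnnc2 were the listed genes that did not pass the filter.

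Sensory neuron markers were read beside the chaperone share. Of 14 markers, 13 were below 0 for RvD6 against vehicle (median -0.38) and 7 were lower before adjustment, with 0 called by either tool, while for RvD6si 7 were below 0 (median -0.01). Of all genes, 47.8% lay below 0 with RvD6 and 48.8% with RvD6si, and 5.99% were lower with RvD6 before adjustment. The sum of the neuron markers was 11378 to 13344 TPM in vehicle and 12061 to 15344 TPM in RvD6si. In RvD6 it was 10548, 10409, 11635, 6879.6 and 7678 TPM. RvD6 replicates 9 and 10, lowest in neuronal markers, also had the lowest chaperone shares (1.00% and 1.17%) and the lowest Hsp90ab1 of that group. Satellite glia and Schwann cell markers summed to 16368 to 25761 TPM over all libraries, and their median change was -0.05 with RvD6 and 0.19 with RvD6si. In bulk tissue, fewer cells of a type and less RNA per cell cannot be told apart, and the part of cell composition in the chaperone values was not tested beyond the muscle covariate. With that covariate, Dnajc5 was 0.83 higher with RvD6si than with vehicle (adjusted p = 0.0502) and Dnajc27 0.65 higher (adjusted p = 0.0642).

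Genes that work with these chaperones were taken as 3 lists. Of 33 heat shock factors and HSP70 or HSP90 cochaperones, 2 were higher and 5 lower with RvD6si at an unadjusted p under 0.05, and 0 were higher and 6 lower with RvD6 (medians -0.13 and -0.22). At that threshold 8.69% of all genes were higher and 7.30% lower with RvD6si, and 7.63% were higher and 5.99% lower with RvD6. EdgeR's adjustment left 0 in every list and comparison. DESeq2 called 3 of this list lower with RvD6si: Grpel1, the exchange factor of mitochondrial HSP70 (-0.52, DESeq2 adjusted p = 0.00166), Hsbp1, which binds heat shock factor 1 (-0.47, DESeq2 adjusted p = 0.00306), and Bag1, an exchange factor of cytosolic HSP70 (-0.72, DESeq2 adjusted p = 0.0497). With RvD6 it called Grpel1 (-0.45, DESeq2 adjusted p = 0.0277). Among all genes with a DESeq2 adjusted p, 4.82% were called higher and 3.30% lower with RvD6si, and 1.44% and 0.479% with RvD6. The same all-gene shares stand beside the lists that follow.

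Prefoldin and the factors that assemble CCT counted 9, of which 1 was higher and 3 lower with RvD6si before adjustment and 0 with RvD6. DESeq2 called Pdcl, a partner of CCT, higher (0.78, DESeq2 adjusted p = 0.0165) and Txndc9 lower (-0.50, DESeq2 adjusted p = 0.0170) with RvD6si. Of 24 genes of ER folding and the unfolded protein response, 1 was higher and 4 lower with RvD6si, and 2 were higher and 3 lower with RvD6. Canx, a lectin chaperone of the ER, was called higher by DESeq2 with RvD6si (0.55, DESeq2 adjusted p = 0.0161), and the stress-induced Ddit3 (-0.67, 0.0102), Manf (-0.65, 0.0176) and Selenos (-0.50, 0.0294) were called lower, with adjusted p of DESeq2 in parentheses after the log2 change. With RvD6 it called 0 of this list.

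Of the 83 genes that met the naming rule, 11 had a mean under 10 counts, and 3 of these had no read (Dnajb8, Dnajc5g and Hspb9). The others were Cct6b, Cct8l1, Dnajb7, Dnajb13, Dnajc5b, Hspa1l, Hspb3 and Hspb7. Nearest the limit were Dnajb5 and Hspa1a on the inside, with means of 11.6 and 12.0 counts, and Dnajb13 and Cct6b on the outside, with 7.53 and 6.27. The strand was not used in counting and reads on exons of several genes were dropped, so genes that overlap others are less certain. Of the 72, 28 overlap exons of another gene, and 8 do so over more than 10% of their length, among them Dnaja4 (44.1%), Hspb2 with Cryab on the opposite strand (30.2%), Tcp1 (16.9%) and Hsp90b1 (15.7%). Cryab, itself a small heat shock protein outside the naming rule, differed by 0.09 with RvD6 and 0.03 with RvD6si (adjusted p = 0.826 and 0.952). Dnajc5 (ENSMUSG00000000826.16, chr2:181520485-181555133, plus strand), Dnajc27 (ENSMUSG00000020657.16, chr12:4082583-4110606, plus strand), Dnajb4 (ENSMUSG00000028035.13, chr3:152178511-152210302, minus strand), Dnajb12 (ENSMUSG00000020109.13, chr10:59879556-59899302, plus strand), Hspb1 (ENSMUSG00000004951.10, chr5:135887919-135889563, plus strand) and Hspb8 (ENSMUSG00000041548.4, chr5:116408491-116422864, minus strand) overlap no other gene's exons on GRCm38.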

How the data were processed

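RNA of 15 trigeminal ganglia was amplified with an adapted Smart-seq2 protocol (oligo-dT priming, no strand information). The authors aligned the reads to GRCm38 with Rsubread, and featureCounts assigned them to the exons of GENCODE release 22; the submitters' processing notes name R 3.6.1 and Subread 1.6.5, and the table header names featureCounts 1.5.0-p1. The deposited values are raw counts with exonic gene lengths. Reads with several alignments or several genes were not counted. Symbols came from GENCODE release 21, which named 99.8% of identifiers. Groups followed the treatment labels; no sample was left out.

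EdgeR 4.0.16 (R 4.3.3) was run on the counts with TMM, its expression filter and 3 groups in one quasi-likelihood fit, with Benjamini-Hochberg adjustment over 16567 genes and a threshold of 0.05. DESeq2 1.42.0 was the other tool and gave the size factors. TPM were computed from counts and exonic lengths. Intervals use the fit's residual degrees of freedom plus the prior ones from edgeR's moderation of the spread (18.2 in all). Alternatives were DESeq2 or edgeR on the samples compared, RLE scaling, testing without a filter, keeping only genes with 10 counts or more in each library, taking out trends on length or GC, a muscle score as covariate, and each of the 15 samples left out. The steps were tested on simulated counts. Genes named were those past either tool's threshold, those with the largest differences at an unadjusted p under 0.05 (4 in each direction and comparison), well known members, the highest of each class and those next to the limit of 10 counts. Members and lists were chosen with earlier results of these data known.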

Additional observations from a re-analysis of the deposited data

Results flagged for a closer look

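In 3 of 105 groups of 5 samples examined, 1 sample lay apart from the other 4 by Dixon's ratio; chance alone does so in about 1 in 20 groups. Dnajc25 stood at 43.3 normalized counts in vehicle replicate 4, where the others held 20.5 to 24.9. Hspa9 stood at 1561 in RvD6 replicate 8, where the others held 1343 to 1374. Hspd1 stood at 1326 in vehicle replicate 5, where the others held 925 to 1001.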

How the results depend on the processing

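For RvD6si against vehicle, the number of the 72 genes past the adjusted threshold, 2 as reported, was 6 with DESeq2 on all samples, 7 with DESeq2 and 1 with edgeR on the samples compared, 1 with no filter (Dnajc5), 0 with the length trend removed and 0 with the muscle covariate, and it ran from 0 to 3 when each library was left out. Without the length trend Dnajc27 was 0.53 higher (adjusted p = 0.100) and Dnajc5 0.64 higher (adjusted p = 0.0584). For RvD6 against vehicle it was 3 and 4 with DESeq2 on all samples and on those compared, in place of 0. The cause was not tested. The share of counts on the chaperones became 1.80% in vehicle, 1.51% in RvD6 and 1.62% in RvD6si without the 10 most counted genes, and 1.02%, 0.800% and 1.01% as a share of TPM. Without 1 library of the group it ran from 1.47% to 1.51%, from 1.19% to 1.28% and from 1.36% to 1.44%. A minimum of 10 counts in every sample gave 3 (Dnajb4, Dnajc27 and Dnajc5), whereas the 1 gene of edgeR on the samples compared was Hspb1, so Dnajc5 and Dnajc27 both missed the threshold there. Between the isomers, Hspb6 turned sign with the muscle covariate (0.27, adjusted p = 0.990). Besides the signs of Hsp90b1 and Cct4 given above, class medians near 0 turned with single libraries: leaving out 1 at a time, DNAJC ran from -0.17 to 0.07 with RvD6si, and DNAJC and HSP70 with HSP110 ran from -0.06 to 0.01 and from -0.08 to 0.03 with RvD6. The muscle covariate moved Dnajb1 to -0.91 and Dnajc4 to -0.32 for RvD6 against vehicle, and Dnajb4 to 0.81, Hspbap1 to 2.05, Hsph1 to 0.13 and Dnajc9 to -0.85 between the isomers. The muscle score and the RvD6 group could be told apart only in part in that fit. Dnajc16 was -0.39 for RvD6 without vehicle replicate 5, and Dnajb4 was 0.31 between the isomers without RvD6si replicate 11. The median changes of the 72 genes when 1 library was left out ran from -0.18 to -0.06 for RvD6si, from -0.17 to -0.06 for RvD6 and from 0.06 to 0.15 between the isomers. No paired analysis was possible because no replicate number is shared between groups. Counting noise and the spread between 5 samples were not separated for single genes.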

Other observations

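Hspb7, a small heat shock protein of heart and skeletal muscle, was under the limit of 10 counts with a mean of 6.00 and was named after its values were seen. It held 0, 0, 0, 1.97 and 3.29 normalized counts in vehicle, 10.9, 13.5, 16.8, 32.2 and 10.1 in RvD6, and 0, 0, 6.39, 0 and 0 in RvD6si. All RvD6 libraries were above all others. Of all tested genes, 2.25% had every RvD6 sample above vehicle, and 1.09% had every RvD6si sample below RvD6. Hspb7 was highest in RvD6 replicate 9, which also had the highest sum of muscle markers (3308 TPM). The order differed elsewhere. Vehicle replicate 4 held 221 TPM of muscle markers and 1.97 normalized counts of Hspb7, and RvD6 replicate 7 held 126 TPM and 13.5. The 3 genes with a 3-unit match were Dnajb6 and the pair Hspd1 and Hspe1, which share a single run. Their median change was -0.14 with RvD6si and -0.16 with RvD6. For the 55 other chaperones with a promoter in the table it was -0.13 and -0.15. A median of 3 genes is a description only.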
